A study of Mus musculus with 5 samples.

Results

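Genes of the cell cycle and of DNA replication were followed in neutrophils sorted from mouse blood on Ly6G. The 30 genes were chosen by symbol, 12 of DNA replication and 18 of mitosis, and all 30 were found among the 19127 genes of the deposited table. The mice had 2 genotypes, both made with a Cre recombinase driven by the Mrp8 promoter of neutrophils and their marrow precursors. The BMAL-labelled group (BMALf/f x Mrp8Cre, for the clock factor BMAL1) had 2 libraries, numbered 2 and 3, and the CXCR4-labelled group (CXCR4f/f x Mrp8Cre) had 3, numbered 1, 2 and 3. Only male mice, 7 to 10 weeks old, were bled, and all at Zeitgeber time 13 (20 h on the clock). No group without a floxed gene was analysed here, so a difference cannot be assigned to 1 of the genotypes. Whether each library came from a separate mouse is not stated, so p-values cover the spread between these libraries, which may be technical.

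Neutrophils divide in the bone marrow as promyelocytes and myelocytes, and they leave the cycle before they reach the blood. Dividing cells first load the MCM2-7 helicase on replication origins and copy DNA with nucleotides made by ribonucleotide reductase, thymidylate synthase and thymidine kinase. They then condense and separate chromosomes under CDK1 with cyclin B, the Aurora and Polo kinases and the anaphase-promoting complex. E2F factors drive the genes of the first stage. Many genes of the second stage carry a cell cycle homology region (CHR), read by the MuvB complexes. The genes therefore serve as a reading of dividing cells among cells that should not divide.

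The bases upstream of 4 genes are shown as examples of stretches that held E2F-type letters or the CHR letters. Those of Pcna and Mcm3 held neither. Each line holds the 250 bases before the annotated start, 5′ to 3′ on the gene's strand (RefSeq, GRCm38.p6). Mcm6 is at chr1:128359706-128359955 on the minus strand, and Mcm5 at chr8:75109259-75109508 on the plus strand. Cdk1 is at chr10:69352913-69353162 and Top2a at chr11:99024190-99024439, both on the minus strand. Capitals mark the letters TTTGAA of the CHR or an E2F-type match on either strand, and overlapping matches run together. The E2F-type letters searched were TTCCCGC and also TTCGCGC. Further letters searched were TTGCCGC and also TTGGCGC.
Mcm6: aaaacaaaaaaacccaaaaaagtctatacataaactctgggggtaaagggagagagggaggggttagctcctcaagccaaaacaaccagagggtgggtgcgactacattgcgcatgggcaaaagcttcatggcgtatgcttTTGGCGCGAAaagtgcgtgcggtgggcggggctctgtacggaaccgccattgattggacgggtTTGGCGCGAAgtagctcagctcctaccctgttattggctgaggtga
Mcm5: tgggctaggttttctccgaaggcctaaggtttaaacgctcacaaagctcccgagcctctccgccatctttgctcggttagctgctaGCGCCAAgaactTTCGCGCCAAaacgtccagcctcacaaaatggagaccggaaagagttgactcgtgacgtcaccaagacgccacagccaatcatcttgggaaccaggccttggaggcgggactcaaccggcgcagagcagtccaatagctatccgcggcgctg
Cdk1: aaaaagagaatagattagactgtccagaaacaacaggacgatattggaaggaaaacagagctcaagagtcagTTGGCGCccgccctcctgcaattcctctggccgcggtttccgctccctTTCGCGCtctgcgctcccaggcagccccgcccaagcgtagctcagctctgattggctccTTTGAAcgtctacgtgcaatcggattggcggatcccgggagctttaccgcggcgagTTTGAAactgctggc
Top2a: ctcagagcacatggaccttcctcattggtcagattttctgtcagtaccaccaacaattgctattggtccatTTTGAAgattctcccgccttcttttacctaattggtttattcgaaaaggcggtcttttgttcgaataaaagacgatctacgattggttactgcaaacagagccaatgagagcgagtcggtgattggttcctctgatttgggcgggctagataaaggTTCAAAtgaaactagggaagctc
The Mcm6 and Mcm5 sequences held E2F-type matches only, Cdk1 held both kinds, and Top2a held the CHR letters only. Such a window was found for 10 of the 12 replication genes and 15 of the 18 mitosis genes. An E2F-type match was present for 5 of the 10 and 4 of the 15, and the CHR letters for 1 of the 10 and 7 of the 15. Among all 27025 genes with a window, 9.01% held an E2F-type match and 18.3% the CHR letters. These are letter matches and say nothing of which factor was bound.

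Values are the authors' normalised read counts, from which whole reads were recovered. The shallowest was CXCR4-labelled library 1 with 356872 reads, and the deepest CXCR4-labelled library 3 with 9101826. In this pair of libraries 3 reads, taken as the limit that a count of 0 allows, were worth 6.46 and 0.351 normalised counts. This limit was between 0.633 and 0.902 in the other 3 libraries. The targeted genes followed the labels in part. Cxcr4 stood at 398.6 and 127.8 in BMAL-labelled libraries 2 and 3, against 15.1, 72.2 and 4.80 across CXCR4-labelled libraries 1, 2 and 3. Arntl, the gene of BMAL1, stood at 4.81 and 27.6 in the libraries labelled for its deletion, against 15.1, 1.90 and 1.05, so the groups are named by their labels. Endothelial genes were present in all 5 libraries, and CXCR4-labelled library 3 was low in neutrophil genes, as described further on.

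Replication genes were found in every library more often than mitosis genes. Of the 12 replication genes, 9 had at least 3 reads in every library. Of the 18 mitosis genes, 5 did so (Mki67, Top2a, Stmn1, Cenpe and Tacc3). Ccna2, encoding cyclin A2, had at most 2 reads in any library, and Ccnb2, encoding cyclin B2, reached 3 reads in 1 library. Of the 30 genes, 27 and 28 had at least 3 reads in BMAL-labelled libraries 2 and 3, against 15, 19 and 25 across CXCR4-labelled libraries 1, 2 and 3. With reads scaled down to the depth of the shallowest library, the genes expected to reach 3 reads would be 10 and 16 in the BMAL-labelled libraries, against 8 and 16 across CXCR4-labelled libraries 2 and 3. The 15 in CXCR4-labelled library 1 is a count as observed, with its own sampling error, so it is not ranked with these. In sorted samples of this kind, fewer cells of a type and less RNA per cell cannot be told apart.

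Per kilobase of exon, averaged over the 5 libraries, Pcna had the highest level with 33.2 normalised counts per kb. Mcm3 had 15.0, Stmn1 14.4, Mki67 8.34 and Mcm6 8.18. The order was not the same in each library, and Stmn1 was above Mcm3 per kb in BMAL-labelled library 2 and CXCR4-labelled libraries 1 and 2. Ccnb1 had 0.321 and Ccna2 0.0574 normalised counts per kb. Levels per kb were thus lower for the mitotic cyclins than for the clamp, the helicase and Ki-67.

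**Figure D1:**
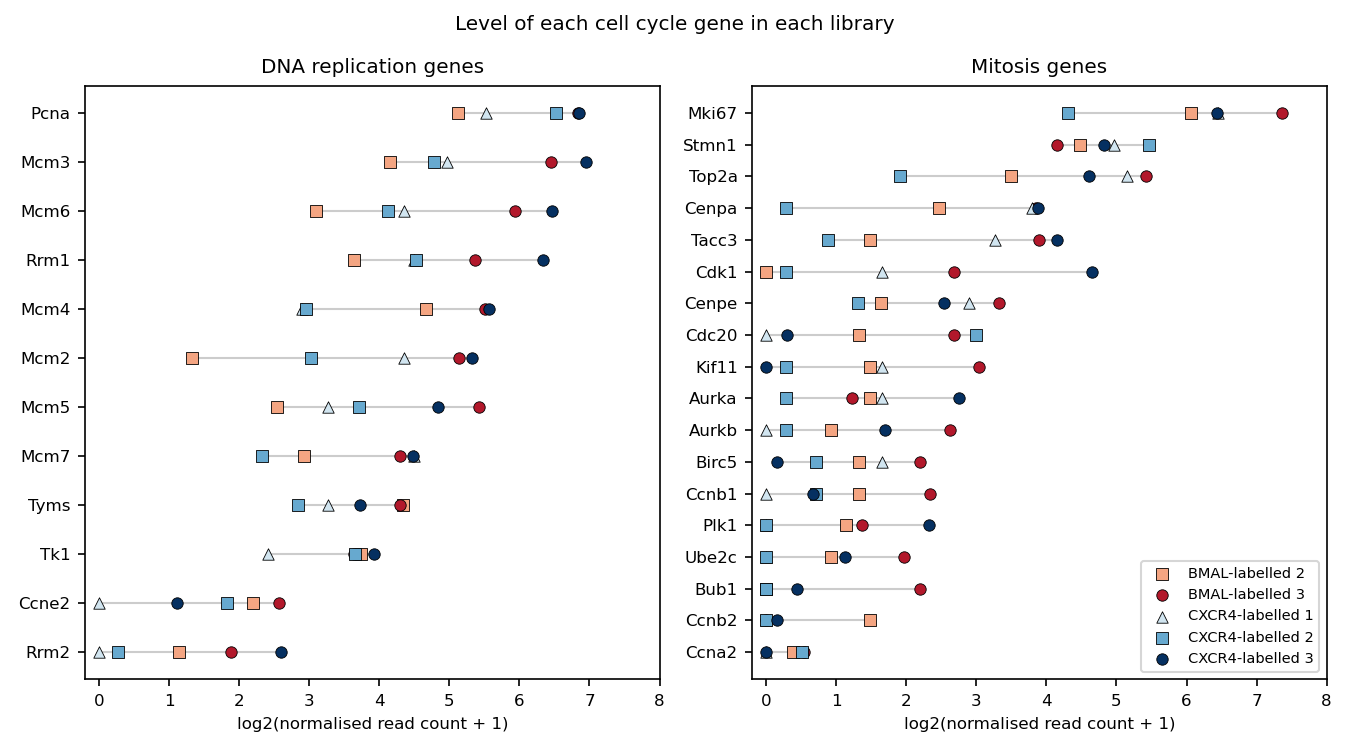
Normalised read count of each gene in each library, as log2(value + 1), for 12 replication genes (left) and 18 mitosis genes (right). Each point is 1 library, grey lines span the 5 libraries, and points at the same value cover each other; both libraries numbered 3 sit at the right for Mcm2 to Mcm6, while Stmn1 has its highest value in CXCR4-labelled library 2.

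Among the replication genes, Pcna encodes the sliding clamp that holds polymerases on DNA (chromosome 2, 132249162 to 132253314, minus strand, GRCm38). Its values were 34.0 and 113.2 in BMAL-labelled libraries 2 and 3, against 45.2, 91.2 and 114.8 across CXCR4-labelled libraries 1, 2 and 3. The group means were 73.6 ± 56.0 (SD, n = 2) and 83.7 ± 35.4 (SD, n = 3), and the groups overlapped. Reads of Pcna may be shared with processed copies elsewhere in the genome, and how the authors assigned them is not stated.

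The 6 genes of the MCM helicase, which unwinds DNA at origins, differed more between libraries of the same group than between group means. Mcm3 (chromosome 1, 20802968 to 20820312, minus strand) stood at 16.8 and 86.3 in the BMAL-labelled libraries, against 30.1, 26.4 and 122.5 in the CXCR4-labelled libraries. Mcm6 (chromosome 1, 128331590 to 128359664, minus strand) stood at 7.52 and 60.3, against 19.4, 16.5 and 87.2. In each group library 3 was highest for both genes, and the ranges of the groups covered each other.
Mcm2 was at 1.503 and 34.3 normalised counts in the BMAL-labelled libraries, against 19.4, 7.18 and 39.2 in the CXCR4-labelled libraries. Mcm5 was at 4.81 and 41.9, against 8.61, 12.03 and 27.5. Mcm4 was at 24.4 and 44.4, against 6.46, 6.76 and 46.3, where 6.46 stands for 3 reads. These genes had the same order of libraries 3 over 2 in both groups. Mcm7 was at 6.61 and 18.6, against 21.5, 4.01 and 21.3, and 421 bases of it overlap Ap4m1 on the other strand, which cannot be told apart if strand was not used.
Together the 6 genes took 0.00714% and 0.0314% of reads in the BMAL-labelled libraries, against 0.0137%, 0.00743% and 0.0323% in the CXCR4-labelled libraries. Library 3 was thus 4.40 times library 2 in the BMAL-labelled group and 4.35 times in the CXCR4-labelled group.

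Genes of nucleotide supply did not all follow the helicase. Rrm1, the large subunit of ribonucleotide reductase, stood at 11.4 and 40.1 in the BMAL-labelled libraries, against 21.5, 22.0 and 79.7 in the CXCR4-labelled libraries. Rrm2, the subunit made mainly in S phase, was at 1.203 and 2.69, against 0, 0.211 and 5.04. Library 3 had the highest value of Rrm1 in each group. For Rrm2 this is not shown, since the 0 in CXCR4-labelled library 1 allows up to 6.46 and the BMAL-labelled values rest on 4 and 12 reads. Tyms, thymidylate synthase, was at 19.2 and 18.6, against 8.61, 6.12 and 12.2, without overlap between groups. The value 8.61 rests on 4 reads, whose exact 95% Poisson interval of 2.35 to 22.0 covers both BMAL-labelled values. Tk1, thymidine kinase, was at 12.3 and 11.4, against 4.31, 11.6 and 14.2, with overlap. Ccne2, cyclin E2 of S-phase entry, was at 3.61 and 4.93, against 0, 2.53 and 1.17. Its 0 in CXCR4-labelled library 1 allows up to 6.46, and 5622 bases of the gene overlap Ints8 on the other strand, so its lack of overlap between groups rests on the other 2 libraries.

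Among the mitosis genes, Mki67 had the most reads in 4 of the 5 libraries. It encodes Ki-67, the protein that coats mitotic chromosomes (chromosome 7, 135689784 to 135716361, minus strand). Its values were 65.8 and 163.5 in the BMAL-labelled libraries, against 86.1, 18.8 and 85.6 in the CXCR4-labelled libraries. The means were 114.6 ± 69.0 (SD, n = 2) and 63.5 ± 38.7 (SD, n = 3), with overlap. Top2a, topoisomerase II alpha, which untangles chromosomes, was at 10.2 and 41.7, against 34.4, 2.74 and 23.3. Both genes were lowest in CXCR4-labelled library 2 and highest in BMAL-labelled library 3.

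The kinase CDK1 and its cyclins were near the limit of detection in most libraries. Cdk1 (chromosome 10, 69335146 to 69352938, minus strand) was at 0 and 5.38 in the BMAL-labelled libraries, against 2.15, 0.211 and 24.1 in the CXCR4-labelled libraries. The value of 24.1 rests on 206 reads and stands alone, since the other libraries had between 0 and 24 reads. Ccnb1, cyclin B1, was at 1.503 and 4.04, against 0, 0.633 and 0.586. In reads these are 5 and 18, against 0, 3 and 5. The groups did not overlap for Ccnb1, but the 0 allows up to 6.46. Ccnb2 had 6 and 0 reads, against 0, 0 and 1, and Ccna2 had 1 and 2 reads, against 0, 2 and 0. Ccnb2 was thus at 1.804 normalised counts in BMAL-labelled library 2, with an exact 95% Poisson interval of 0.662 to 3.93, and at 0 or 1 read in the others.

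Spindle and centromere genes varied by library. Tacc3, which stabilises spindle microtubules, was at 1.804 and 13.9 in the BMAL-labelled libraries, against 8.61, 0.844 and 16.7 in the CXCR4-labelled libraries. Cenpa, the histone H3 variant of centromeres, was at 4.51 and 13.5, against 12.9, 0.211 and 13.7. Cenpe, a kinetochore kinesin, was at 2.10 and 8.97, against 6.46, 1.48 and 4.80. For these 3 genes the lowest value was in CXCR4-labelled library 2. Kif11, the kinesin that pushes spindle poles apart, was at 1.804 and 7.18, against 2.15, 0.211 and 0, and CXCR4-labelled library 3 had no read of it in spite of its depth.
The mitotic kinases had few reads. Aurkb, of the chromosomal passenger complex, was at 0.902 and 5.16 in the BMAL-labelled libraries, against 0, 0.211 and 2.22 in the CXCR4-labelled libraries. Aurka, of the spindle poles, was at 1.804 and 1.35, against 2.15, 0.211 and 5.74. Plk1, Polo-like kinase 1, was at 1.203 and 1.57, against 0, 0 and 3.98. Aurka and Plk1 thus had their highest value in CXCR4-labelled library 3 and Aurkb in BMAL-labelled library 3, but at most 1 read of each in CXCR4-labelled library 1 does not exclude as high a level there. Birc5, encoding survivin, the partner of Aurora B, ranged from 0.117 to 3.59 over the 5 libraries. Bub1, a spindle checkpoint kinase, and Ube2c, the E2 enzyme of the anaphase-promoting complex, reached at most 3.59 and 2.91. Cdc20, the activator of that complex, was at 1.503 and 5.38, against 0, 6.97 and 0.234, and differed from the rest in having its highest value in CXCR4-labelled library 2.

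Stmn1 encodes stathmin, which destabilises microtubules and is also made outside dividing cells. It stood at 21.3 and 16.8 in the BMAL-labelled libraries, against 30.1, 43.3 and 27.3 in the CXCR4-labelled libraries, and the groups did not overlap. In contrast to Mki67 and Top2a its highest value was in CXCR4-labelled library 2. The value of 30.1 rests on 14 reads with an exact 95% Poisson interval of 16.5 to 50.6, which covers both BMAL-labelled values.

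The replication and mitosis sets were then compared as sums. Replication genes took 0.0166% and 0.0524% of reads in the BMAL-labelled libraries, against 0.0241%, 0.0210% and 0.0536% in the CXCR4-labelled libraries. The means were 0.0345% ± 0.0253 (SD, n = 2) and 0.0329% ± 0.0180 (SD, n = 3). Mitosis genes took 0.0138% and 0.0328%, against 0.0244%, 0.00783% and 0.0197%, with means of 0.0233% ± 0.0135 (SD, n = 2) and 0.0173% ± 0.00853 (SD, n = 3). Both libraries numbered 3 were thus nearly equal in replication genes, with exact 95% binomial intervals of 0.0502% to 0.0547% in the BMAL-labelled and 0.0521% to 0.0551% in the CXCR4-labelled library. In mitosis genes their intervals were 0.0311% to 0.0347% and 0.0188% to 0.0206%. Intervals and limits cover counting error only, since the reads carry no molecular identifiers and may be copies of 1 molecule.

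Reads of replication genes were 1.205 and 1.60 times those of mitosis genes in the BMAL-labelled libraries, against 0.989, 2.69 and 2.72 times in the CXCR4-labelled libraries. The exact 95% intervals of these ratios were 1.05 to 1.38 and 1.49 to 1.71, against 0.725 to 1.35, 2.38 to 3.04 and 2.57 to 2.87. CXCR4-labelled libraries 2 and 3 lay above the other 3 libraries. Mki67, Top2a and Stmn1 held between 64.8% and 84.3% of the mitosis reads in each library, so the ratio rests largely on them. With Mki67, Stmn1 and Ccna2 left out the ratios were 4.54 and 4.04 in the BMAL-labelled libraries, against 2.61, 14.4 and 5.88 in the CXCR4-labelled libraries. CXCR4-labelled libraries 2 and 3 again lay above the other 3. The exact 95% intervals of both BMAL-labelled ratios, 3.67 to 5.67 and 3.67 to 4.45, overlapped. That of CXCR4-labelled library 3, 5.46 to 6.33, overlapped the interval of BMAL-labelled library 2. Overlap by itself does not decide whether these ratios differ, and their difference was not tested. The ratio of 14.4 in CXCR4-labelled library 2 rests on 68 mitosis reads, 33 of them from Cdc20.

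**Figure D2:**
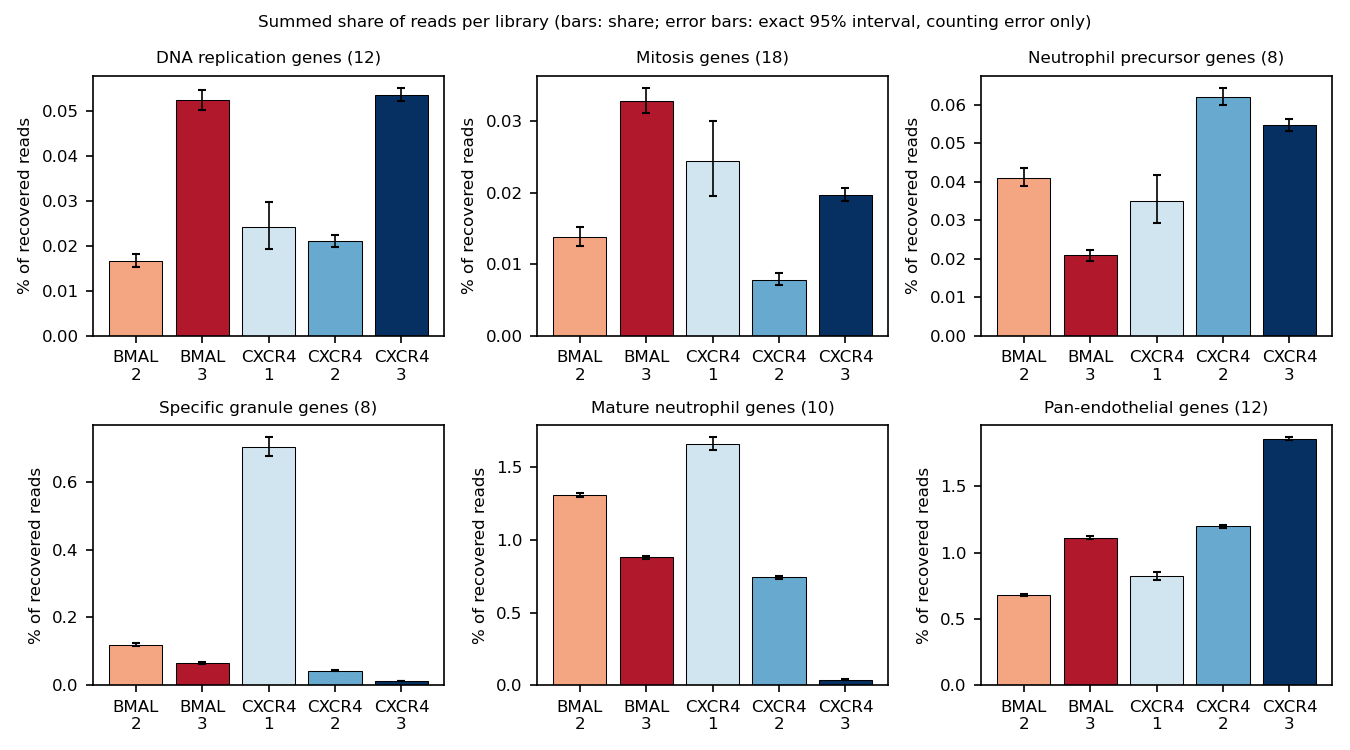
Summed share of recovered reads, in percent, of 6 gene sets in each library, with the BMAL-labelled libraries left and exact 95% binomial intervals for counting error. Replication genes reach 0.0524% and 0.0536% in the libraries numbered 3, while specific granule genes peak at 0.704% in CXCR4-labelled library 1 and mature neutrophil genes are lowest, at 0.0369%, in CXCR4-labelled library 3; each panel has its own scale from 0.

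The libraries numbered 2 and 3 occur in both groups and were set side by side within each group, a description made after the values were seen and given with no test. Library 3 exceeded library 2 for 25 of 30 genes in the BMAL-labelled group and for 23 of 30 in the CXCR4-labelled group. Over all 14632 genes tested, library 3 was the higher for 50.4% and 49.2%. The median difference of library 3 minus library 2 was 1.36 and 1.32 on the log2(value + 1) scale for the 30 genes, and 0.011 and 0 for all genes tested. Of the replication genes, 10 of 12 and 11 of 12 were higher in library 3, with medians of 1.54 and 1.98. Of the mitosis genes, 15 of 18 and 12 of 18 were higher, with medians of 1.32 and 1.17. No label says that equal numbers share a day, litter or batch.

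Single genes showed the size of this gap. Mcm3 was 5.13 times as high in library 3 as in library 2 of the BMAL-labelled group and 4.64 times in the CXCR4-labelled group, with exact 95% intervals of 3.87 to 6.91 and 3.85 to 5.63. Mcm6 was 8.03 and 5.30 times as high, and Rrm1 3.51 and 3.63 times. Mki67 was 2.48 and 4.56 times as high, and Top2a 4.08 and 8.49 times. Stmn1 went the other way in both groups, at 0.788 times (interval 0.562 to 1.11) and 0.630 times (interval 0.520 to 0.764). Tk1 had intervals that include 1 in both groups, 0.603 to 1.44 and 0.880 to 1.71. The gap was thus seen in the helicase, in Rrm1, Mki67 and Top2a, and not in every gene of either set.

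**Figure D3:**
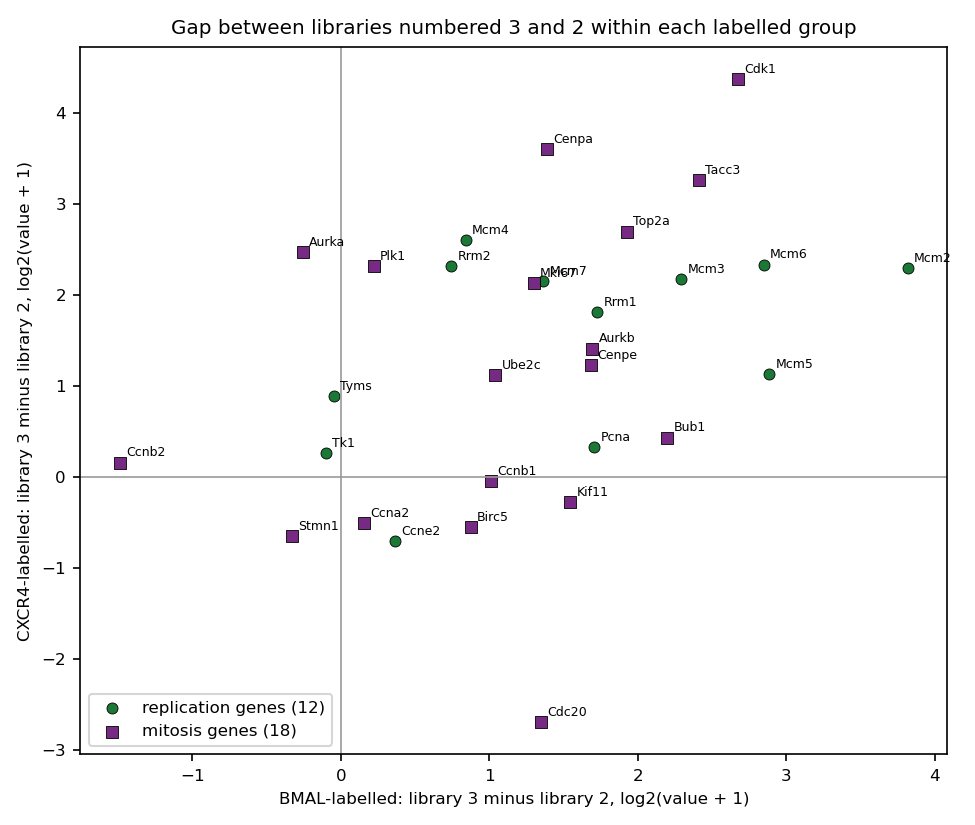
Library 3 minus library 2 within the BMAL-labelled group (horizontal axis) and within the CXCR4-labelled group (vertical axis), in log2(value + 1), for 12 replication genes (circles) and 18 mitosis genes (squares). Of the 30 genes, 19 lie above 0 on both axes, Stmn1 lies below 0 on both, and Cdc20 lies above 0 in the BMAL-labelled and below 0 in the CXCR4-labelled group.

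Between the groups no cell cycle gene passed the test. The fit covered the 14632 genes whose mean CPM (counts scaled to the same library total) reached 1, and 27 of the 30 genes entered it, all 12 replication and 15 of 18 mitosis genes. Bub1, Ccna2 and Ccnb2 were too low. limma on log2(value + 1) called 0 of the 27 at an adjusted p of 0.05, where 0% of all genes were called. At an unadjusted p under 0.05 it counted 0 of the 27, where 4.18% of all genes were counted (3.68% higher and 0.499% lower in the BMAL-labelled libraries). edgeR on the recovered reads called 0 of the 27 and 0% of all genes, and at an unadjusted p under 0.05 it counted 0 of the 27 and 3.58% of all genes. DESeq2 called 0 of the 27 and 0.0889% of all genes, and at an unadjusted p under 0.05 it counted 0 of the 27 and 4.66% of all genes.

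The groups did not overlap for 4 of the 27 genes, where they did not overlap for 18.8% of all genes tested. Ccnb1, Ccne2 and Tyms were higher in the BMAL-labelled libraries, as were 13.6% of all genes, and Stmn1 was lower, as were 5.22%. The count is near the background. Differences are BMAL-labelled minus CXCR4-labelled values in log2(value + 1), each with its standard error (SE). The difference was 1.37 (SE 0.83) for Ccnb1 and 1.41 (SE 0.95) for Ccne2. It was 1.04 (SE 0.77) for Tyms and -0.77 (SE 0.59) for Stmn1, and 0.98 (SE 0.77) for Mki67. The lowest unadjusted p by limma was 0.135, for Kif11, with a difference of 1.62 (SE 0.98). Pcna differed by -0.32 (SE 0.66), Mcm3 by -0.26 (SE 0.89) and Cdk1 by -0.86 (SE 1.46). Every one of the 27 genes had an adjusted p of 0.9999 by limma.

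The replication genes had a median difference of -0.054, with 6 of 12 above 0, and of 0.0065 with all libraries rescaled to the same total. The mitosis genes tested had a median of 0.57, with 11 of 15 above 0, and all genes tested had a median of 0.11. The median of the replication genes was 0.92 without BMAL-labelled library 2 and -1.01 without BMAL-labelled library 3. It was 0.47 without CXCR4-labelled library 3, so its sign is set by single libraries. For the mitosis genes the median was 1.44 without BMAL-labelled library 2, -0.13 without BMAL-labelled library 3, 0.84 without CXCR4-labelled library 1 and 0.18 without CXCR4-labelled library 2. With either BMAL-labelled library left out, the remaining one is assumed to vary like the CXCR4-labelled group.

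**Figure D4:**
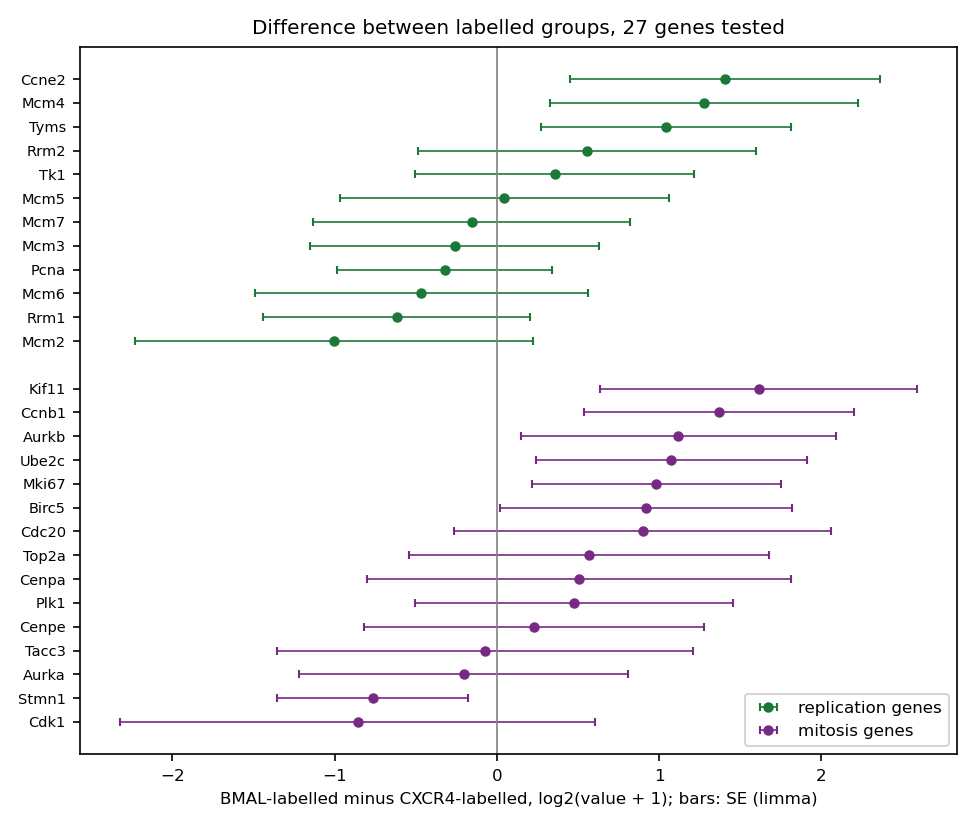
Difference of BMAL-labelled minus CXCR4-labelled libraries, in log2(value + 1), for the 12 replication and 15 mitosis genes tested, with bars of 1 SE from limma. Kif11 has the largest positive difference, 1.62, and no gene has an adjusted p under 0.05.

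Other genes of the cycle, from lists of 47 replication and 55 mitosis genes, were also more often higher in library 3 than in library 2. Library 3 exceeded library 2 for 42 of 47 other replication genes in the BMAL-labelled and 37 of 47 in the CXCR4-labelled group, and for 44 of 55 and 34 of 55 other mitosis genes. The sum of the other replication genes was 2.12 and 2.17 times as high in library 3, and that of the other mitosis genes 1.66 and 1.44 times. Between the groups 0 of 45 and 0 of 46 tested passed by limma, and the medians were 0.14 and 0.22. At an unadjusted p under 0.05 there were 2 and 1, all higher in the BMAL-labelled libraries, a share near or under the 3.68% of all genes that were higher at that threshold. The pair of replication genes were Mcm10, an origin-firing factor, and Cdc45, a partner of the MCM helicase. Mcm10 was at 2.41 and 8.52 in the BMAL-labelled libraries, against 0, 0 and 0.117 in the CXCR4-labelled libraries. Cdc45 was at 5.71 and 11.9, against 2.15, 0.211 and 0. CXCR4-labelled library 3, with the highest replication sum, thus had at most 1 read of either gene. Kif23, a kinesin of cytokinesis, was at 108.2 and 72.0, against 45.2, 29.98 and 13.1, without overlap.

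Genes that act before S phase spanned a wide range of levels per length. Ccnd1, cyclin D1, which opens the cycle with CDK4 and CDK6, averaged 84.1 normalised counts per kb over the 5 libraries, and Ccnd2 averaged 21.2, while Ccne1, cyclin E1, averaged 0.219. Of 22 tested G1 cyclins, kinases and E2F-RB genes 0 passed, with a median of -0.024 and 2 at an unadjusted p under 0.05, both higher, where 3.68% of all genes were. These 2 of 22 were E2f2, an activator E2F also high in late erythroid cells, and E2f4, a repressor E2F. E2f2 was at 65.2 and 33.9, against 25.8, 5.28 and 2.46, and E2f4 at 19.8 and 15.7, against 2.15, 1.48 and 5.74. Erythroid genes took 0.348% and 0.257% of reads in the BMAL-labelled libraries, against 0.288%, 0.00900% and 0.0177% in the CXCR4-labelled libraries, and their part in these values was not tested.

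CDK inhibitors and antiproliferative genes had lower sums in library 3 than in library 2 of each group. They summed to 0.270% and 0.144% of reads in the BMAL-labelled libraries, against 0.131%, 0.139% and 0.0487% in the CXCR4-labelled libraries. By the median over the 14 genes on the log2(value + 1) scale, library 3 stood at 5.43 and library 2 at 5.32 in the BMAL-labelled group. In that group the order of the sums thus rests on abundant genes. In the CXCR4-labelled group library 3 stood at 4.96 and library 2 at 5.57, the same order as the sums. Btg1, an antiproliferative gene of resting leukocytes, was at 842.7 and 468.6, against 193.7, 201.6 and 30.4. Cdkn1b, the inhibitor p27, was at 156.0 and 100.5, against 92.6, 73.9 and 52.6. Both were without overlap, higher in the BMAL-labelled libraries and lowest in CXCR4-labelled library 3. In all, 3 of the 13 tested were higher without overlap and 1 was lower, where 13.6% and 5.22% of all genes were. The lower gene was Ccng1, cyclin G1, at 34.9 and 36.5, against 56.0, 47.1 and 65.8. Of 13 tested 0 passed by limma, with 1 at an unadjusted p under 0.05 (Btg1, higher, where 3.68% of all genes were).

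Genes of dividing neutrophil precursors had few reads. Elane, the elastase of azurophil granules, had 0 and 1 reads in the BMAL-labelled group and none in the CXCR4-labelled group. Mpo, myeloperoxidase, had 6 and 0 reads, against 6, 0 and 0. In CXCR4-labelled library 1 its 6 reads amount to 12.9 normalised counts, and a 0 there allows up to 6.46, so low levels of these genes are not shown for that library. Ms4a3, Fcnb and Myb had at most 8 reads in any library, and Gfi1 had 0 in all 5. Kit and Cd34, which blood progenitors share with endothelium, were the other 2 genes in the table and held nearly all of this list's reads. The list held 10 genes, and Prtn3 and Ctsg were not analysed here.

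Specific granule genes, made by myelocytes and metamyelocytes, peaked in another library than the cell cycle genes. All 8 were measured, and together they took 0.119% and 0.0653% of reads in the BMAL-labelled libraries, against 0.704%, 0.0424% and 0.0123% in the CXCR4-labelled libraries. Ltf, lactoferrin, was at 6.31 and 3.14, against 858.8, 22.8 and 15.7. Ngp, a granule protein, was at 7.52 and 6.28, against 1229, 15.8 and 25.6. They were the 2 of 8 genes without overlap, both lower in the BMAL-labelled libraries, where 5.22% of all genes were. In the difference between groups the list did not follow them, with 4 genes above 0, 4 below and a median of 0.014. By limma 0 of 8 passed, with 1 at an unadjusted p under 0.05, lower, where 0.499% of all genes were. The median level over the 8 genes, in log2(value + 1), was 9.80 in CXCR4-labelled library 1. It was 5.03 and 4.34 in CXCR4-labelled libraries 2 and 3, and 4.67 and 2.82 in the BMAL-labelled libraries. CXCR4-labelled library 1, highest for the list as for Ltf and Ngp, had a replication sum of 0.0241% that lay below those of both libraries numbered 3. Its mitosis sum of 0.0244% lay between theirs.

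Mature neutrophil genes ran against the replication genes between the numbered libraries. They summed to 1.31% and 0.880% of reads in the BMAL-labelled libraries, against 1.67%, 0.742% and 0.0369% in the CXCR4-labelled libraries, from 10 of 10 genes measured. CXCR4-labelled library 3 thus had the lowest share of neutrophil genes, and a share of replication genes close to that of BMAL-labelled library 3. The 12 pan-endothelial genes, none at 0 in any library, summed to 0.681% and 1.11%, against 0.822%, 1.199% and 1.86%. Their part in the cell cycle values was not tested. Library 3 was 1.63 and 1.55 times library 2 in this sum, against 3.15 and 2.55 times in the replication sum. By median over the endothelial genes, library 3 minus library 2 was 0.14 and -0.14 on the log2 scale. Library 3 was higher for 7 of 12 endothelial genes in the BMAL-labelled and 5 of 12 in the CXCR4-labelled group. It was lower for 5 of 12 and 7 of 12. Kdr and Ptprb, chosen after their values were seen, were among the 5 of 12 that were higher in library 3 of both groups. Kdr, the VEGF receptor 2, was at 722.4 and 2674, against 1246, 1579 and 6062, and Ptprb, an endothelial phosphatase, at 1546 and 4183, against 2127, 2989 and 8368.

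Markers of further cell types were also summed. Monocyte and macrophage genes summed to 0.0427% and 0.0266% of reads in the BMAL-labelled libraries, against 0.0249%, 0.00740% and 0.00732% in the CXCR4-labelled libraries, from 9 of 9 genes. B cell genes (9 of 9 in the table) took between 0.00204% and 0.00644%, and T and NK cell genes (9 of 10) between 0.000904% and 0.00264%. Cd3g and Ncr1 were at 0 in all 5 libraries.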

How the data were processed

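RNA from Ly6G-sorted blood neutrophils was amplified with the Ovation Single Cell kit and sequenced, per the labels' protocols. The authors deposited a table of normalised read counts, a signal per gene that is not negative. Per the submitters' processing notes, CASAVA 1.8.2, cutadapt, RSEM 1.2.3 and GRCm38 were used, in no stated role or order. For the normalisation, annotation and strand setting, the method is not given in sources used here. All values (100% in each library) were whole multiples of the smallest, within 0.01 of a read, and were divided by it to recover reads (2869625 and 4058914, against 356872, 4646391 and 9101826).

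Identifiers matched symbols for 18847 of 19127 genes. limma 3.58.1 (R 4.3.3) was fitted to log2(value + 1) of all 14632 genes whose mean CPM reached 1, with an intensity trend, with p for both directions, Benjamini-Hochberg adjusted (3 residual and 5.36 prior degrees of freedom). The pseudocount understates differences of low genes. edgeR 4.0.16 and DESeq2 1.42.0 were run on the recovered reads as alternatives, beside other pseudocounts, filters and scalings, a replicate block and fits without libraries. Exon lengths came from GENCODE M21. All 30 genes could be named, and of other lists up to 4 with the lowest p. Some genes outside this rule were also named, among them Ccnd1 and Ccnd2, which ranked 11 and 8 by p in their list. The genes and the 14 lists were chosen with earlier results of these data known. The fitting was run on simulated data to check that large changes put into well-expressed genes came back with the right sign. That check does not measure the power for low or variable genes such as these. Replicates were not duplicates, with a chi-square per degree of freedom of 28.9 or more between libraries of a group.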

Additional observations from a re-analysis of the deposited data

How the results depend on the processing

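No cell cycle gene passed at an adjusted p of 0.05 under any of the alternatives run, and limma and edgeR called 0 genes of the table while DESeq2 called 13. The count of genes at an unadjusted p under 0.05 by limma was 0 of the 27 tested in the main fit. It was 1 of 26 without CXCR4-labelled library 3. Without CXCR4-labelled library 1 it was 0 of 28, as it was without CXCR4-labelled library 2. With the replicate number as a block term it was 1 of 27. The share over all genes was not taken for these alternatives, so their counts have no background. Fits that leave 1 library in a group are not counted here. Equal numbers had deviations from group means correlated at 0.28 (libraries 2) and 0.39 (libraries 3), but no label pairs them and libraries 2 and 3 share only a number. With 2 BMAL-labelled libraries the deviations of 1 are the negative of the other's, so these are not 2 independent values. CXCR4-labelled library 1 correlated at 0.13 with BMAL-labelled library 2 and at -0.13 with BMAL-labelled library 3.

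Without 1 library the median difference ranged from -1.01 to 0.92 for replication genes and from -0.13 to 1.44 for mitosis genes, and under the other alternatives from -0.71 to 0.46 and from -0.038 to 1.21. Of 157 values of the genes whose differences are given above, 7 changed sign. Over all cell cycle genes tested the signs moved more. In the main fit 17 were above 0 and 10 below. These were 26 and 2 without BMAL-labelled library 2, and 10 and 14 without BMAL-labelled library 3. Without CXCR4-labelled library 3 they were 22 and 4. Without 1 library Pcna ranged from -1.18 to 0.53, Mcm3 from -1.40 to 0.89 and Cdk1 from -2.19 to 0.48. Without CXCR4-labelled libraries 1 and 3, an alternative added after the data were seen, Mcm3 was 0.53 and Cdk1 1.06. The cause was not tested. The ratio of replication to mitosis reads without Mki67, Stmn1 and Ccna2 was 4.54 and 4.04 in the BMAL-labelled libraries, against 2.61, 14.4 and 5.88 in the CXCR4-labelled libraries. The median of all genes was 0.11 with the authors' scaling and between 0.060 and 0.16 with 3 others. In CXCR4-labelled library 1, the shallowest, 8 of 18 mitosis genes were at 0, each of which allows up to 6.46 normalised counts.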
